A study of Mus musculus with 6 samples.

Results

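The integrin and laminin subunit genes were described in primary mouse muscle stem cells with and without a deletion of Med23, one of the subunits of Mediator, through which transcription factors act on RNA polymerase II. The members are all genes whose symbols name an integrin α or β subunit or a laminin α, β or γ chain, chosen by name and not by any measured value. There were 37 of them among 32973 rows of the table. Of these, 26 were integrin genes (18 α and 8 β) and 11 were laminin genes (5 α, 3 β and 3 γ). Integrin-associated genes with similar symbols were not counted as members. A mean of at least 1 FPKM (fragments per kilobase of transcript, scaled to the mapped fragments of each library) over the 6 libraries was required for testing, and 12 integrin and 7 laminin genes met it.

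Cells were sorted from skeletal muscle and grown for 3 days on dishes coated with type I collagen, in F10 medium with 20% serum and 5 ng/ml basic fibroblast growth factor. The control group (Ctrl, 3 libraries) had the genotype Med23flox/flox. The knockout group (Med23KO, 3 libraries) had the genotype Med23flox/flox::Pax7CreERT2, in which Pax7 drives a Cre recombinase that tamoxifen activates. The labels give "none" as the treatment of both groups and do not give the age or number of the animals. No group carried the Cre without the floxed alleles, so Cre and the loss of Med23 cannot be told apart. The labels do not say whether the replicates came from separate animals or cultures, so each p-value reflects only how far these 6 libraries spread, and that spread may be technical.

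Integrins are αβ heterodimers that span the membrane, bind matrix proteins outside the cell and connect to actin through adaptor proteins inside it. The β1 subunit pairs with most α subunits, β4 pairs with α6, and αV pairs with β1, β3, β5, β6 or β8. Laminins are αβγ heterotrimers that form the sheet of the basement membrane. Muscle stem cells lie between the muscle fibre and its basement membrane, where the α7β1 integrin binds laminins that carry the α2 chain. Mutations of the laminin α2 or integrin α7 gene cause muscular dystrophy or myopathy.

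Med23 itself had 10.4, 11.7 and 10.2 FPKM in the Ctrl libraries and 5.10, 5.86 and 4.22 FPKM in the Med23KO libraries (adjusted p = 0.0197, limma with Benjamini-Hochberg adjustment over 12336 genes, used for every adjusted p below unless another source is named). Read depth is unknown, and the summed FPKM ran from 697886 to 746973 in Ctrl and from 599738 to 675095 in Med23KO. Of these sums, the noncoding RNA Rmrp alone had 225416 to 239590 FPKM in Ctrl and 173041 to 205244 FPKM in Med23KO. The muscle lineage genes Pax7 and Myod1 were present in every library, at 32.4 to 60.3 FPKM and at 551 to 1170 FPKM. Integrin genes of leukocytes (Itgad, Itgae, Itgal, Itgam, Itgax, Itgb2 and Itgb7) did not exceed 0.387 FPKM in any library, and Itgad was listed at 0 in all of them. Of 13 leukocyte markers, 8 were below 1 FPKM in every library, and the list summed to 23.8 to 40.6 FPKM in Ctrl and 23.7 to 51.4 FPKM in Med23KO. Most of this sum was Lyz2 (17.4 ± 6.16 FPKM in Ctrl and 19.3 ± 13.8 FPKM in Med23KO) and Laptm5 (11.8 ± 2.36 and 10.4 ± 0.253 FPKM). Of 12 endothelial markers, 3 were below 1 FPKM in every library, with sums of 8.66 to 19.3 and 11.1 to 15.1 FPKM.

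In control cells the integrin repertoire was led by Itgb1, the common β subunit, at 211 ± 35.6 FPKM (SD, n = 3, as for every mean ± SD below). It ranked 296 among all genes by mean FPKM. The laminin receptor gene Itga7 had the highest α level in Ctrl, at 98.5 ± 17.2 FPKM, followed by Itga6 at 58.4 ± 2.50 FPKM. Next came Itgav at 48.9 ± 6.23 FPKM, the fibronectin receptor gene Itga5 at 21.5 ± 1.73 FPKM, Itga3 at 11.4 ± 0.803 FPKM and the collagen receptor gene Itga1 at 1.23 ± 0.388 FPKM. Neighbours in this α order did not overlap among the Ctrl libraries, while in Med23KO the ranges of Itga7, Itga6 and Itgav overlapped from each gene to the next. Among β genes other than Itgb1, Itgb4 had 34.9 ± 4.38 FPKM and Itgb5 9.16 ± 0.282 FPKM. Itgb8 had 5.54 ± 0.638 FPKM and Itgb3 4.54 ± 1.05 FPKM, with overlapping ranges (4.88 to 6.15 and 3.45 to 5.56 FPKM). Itgb6 had 1.07 ± 0.256 FPKM.

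The laminin genes were led by Lamb1 at 72.9 ± 12.6 FPKM and Lamc1 at 42.9 ± 9.56 FPKM, the genes of the widespread β1 and γ1 chains. The α2 gene Lama2 had 23.9 ± 5.84 FPKM and the α5 gene Lama5 15.6 ± 3.22 FPKM. Lamb3 had 18.4 ± 4.92 FPKM, Lamb2 11.3 ± 3.84 FPKM and Lama4 1.01 ± 0.194 FPKM. In Ctrl the ranges of Lama2, Lamb3, Lama5 and Lamb2 overlapped from each gene to the next, so their order is not resolved.

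**Figure D1:**
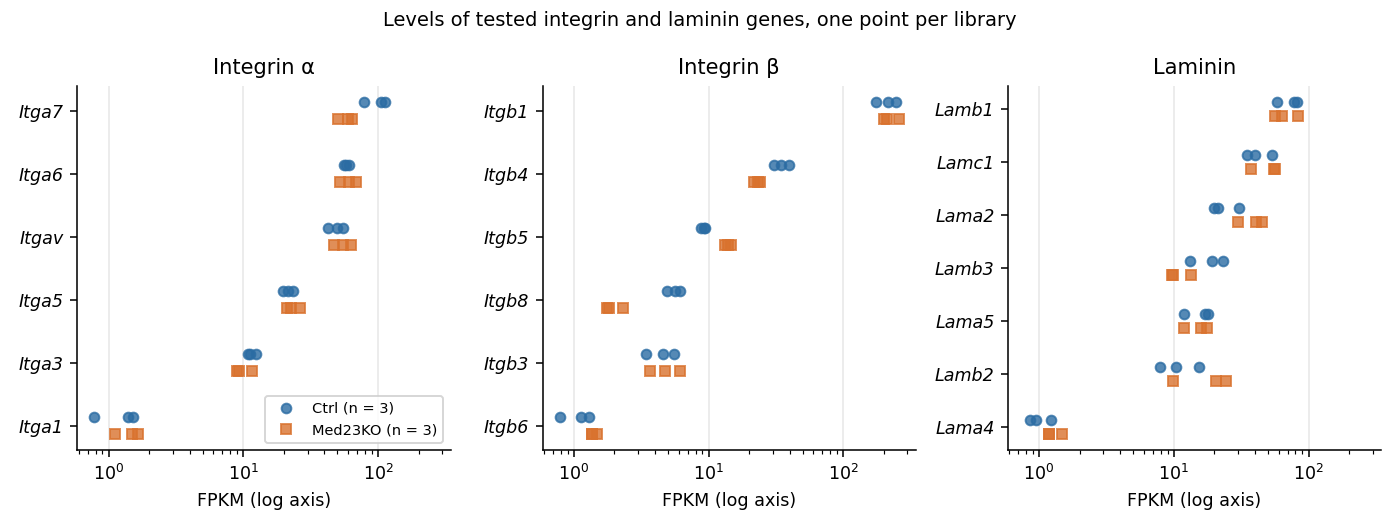
FPKM of the 19 tested members on a log axis, with 1 point for each library (circles, Ctrl, n = 3; squares, Med23KO, n = 3), ordered by the Ctrl mean within the integrin α, integrin β and laminin genes. Itgb1 lies highest of all, Itgb8 and Itgb4 points of Med23KO lie left of the Ctrl points, and Itgb5 points lie right of them.

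Of the 12 tested integrin genes, the β subunit genes Itgb8 and Itgb4 fell in the knockout and Itgb5 rose, while 0 of 6 α subunit genes passed the limma threshold. Over all 19 members this was 15.8% called, while 2.91% of all 12336 tested genes were called (1.49% higher and 1.42% lower). The ranges of both groups did not overlap in 5 of the 19 members, or 26.3%, close to the 24.7% of all tested genes. The median log2 fold change was 0.08 over the integrin genes and -0.03 over all genes, where a log2 fold change is Med23KO minus Ctrl on the log2(FPKM + 1) scale, which understates the change of low genes.

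Itgb8 encodes the β8 subunit, which with αV binds and activates latent transforming growth factor β. It had 6.15, 4.88 and 5.6 FPKM in Ctrl replicates 1, 2 and 3 and 2.30, 1.75 and 1.83 FPKM in Med23KO replicates 1, 2 and 3. Each knockout library lay below each control library, and the mean of 1.96 ± 0.301 FPKM was 35.4% of the control mean. The log2 fold change was -1.14 (SE 0.139, adjusted p = 0.0137). The call was lost without Ctrl replicate 2, Ctrl replicate 3 or Med23KO replicate 2, with adjusted p between 0.0532 and 0.1, and the log2 fold change stayed between -1.22 and -1.09 in the 3 fits. In these bulk libraries, fewer cells that express a gene and less RNA per cell cannot be told apart.

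Itgb5 encodes the β5 subunit, whose αVβ5 dimer is a vitronectin receptor. It had 9.21, 9.41 and 8.85 FPKM in Ctrl and 14.0, 14.7 and 13.2 FPKM in Med23KO. All knockout libraries lay above all control libraries, and the mean rose to 14.0 ± 0.756 FPKM, or 152% of the control mean. The log2 fold change was 0.56 (SE 0.0973, adjusted p = 0.0317). Med23KO replicate 3 was the single library that could be left out with the call kept (adjusted p = 0.0179), and without any 1 of the other 5 the adjusted p lay between 0.0846 and 0.184. The ratio of Itgb5 to Itgb8 FPKM was 1.5 to 1.93 in Ctrl and 6.06 to 8.43 in Med23KO.

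The bases before the RefSeq start site of Itgb5 (build GRCm38.p6, 250 bases, plus strand, chr16:33829415-33829664) are shown because this was the sole member called higher in the main limma fit. The sequence is written 5′ to 3′, and capitals mark every match, on either strand, to the GC box GGGCGG, the promoter motif CCAAT, the E-box form CAGCTG, the AP-1 motif TGANTCA, the TEAD motif CATTCC or the TATA box TATAAA.

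Itgb5: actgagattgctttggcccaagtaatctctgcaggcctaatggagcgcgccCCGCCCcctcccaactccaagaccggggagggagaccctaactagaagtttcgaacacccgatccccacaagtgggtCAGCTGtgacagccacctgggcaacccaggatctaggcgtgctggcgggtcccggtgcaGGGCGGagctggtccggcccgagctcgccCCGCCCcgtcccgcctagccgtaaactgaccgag

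It holds 3 matches to GGGCGG and 1 to CAGCTG, none of which overlaps another, and 65.2% of its bases are G or C. Of 32851 promoter windows of the same length in the RefSeq table, 32.7% hold GGGCGG and 13% hold CAGCTG. The table had windows for 23 of the 37 members. The matches describe these letters and do not show that a factor binds there.

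The other αV partners with a measured level did not pass the test. Itgb3, the β subunit of the αVβ3 receptor, had 3.45, 4.60 and 5.56 FPKM in Ctrl and 4.71, 3.65 and 6.17 FPKM in Med23KO, and the groups overlapped (log2 fold change 0.07, 95% interval -0.41 to 0.55). Itgb6, typical of epithelia, had 1.29, 1.13 and 0.788 FPKM in Ctrl and 1.37, 1.49 and 1.35 FPKM in Med23KO. Its groups did not overlap, but the difference did not pass the test (log2 fold change 0.22, adjusted p = 0.487). The αV gene Itgav had 42.3, 49.8 and 54.7 FPKM in Ctrl and 47.0, 54.8 and 63.2 FPKM in Med23KO, with overlapping groups and a 95% interval of -0.17 to 0.49 for the log2 fold change. Summed over Itgb3, Itgb5, Itgb6 and Itgb8, the level was 20.3 ± 0.433 FPKM in Ctrl and 22.2 ± 0.497 FPKM in Med23KO. Within that sum the share of Itgb8 went from 27.3% ± 3.12 to 8.83% ± 1.28 and that of Itgb5 from 45.1% ± 2.31 to 63.1% ± 4.82, a description without a test. The sums ran from 20.0 to 20.8 FPKM in Ctrl and from 21.6 to 22.6 FPKM in Med23KO, so each knockout sum lay above each control sum.

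**Figure D2:**
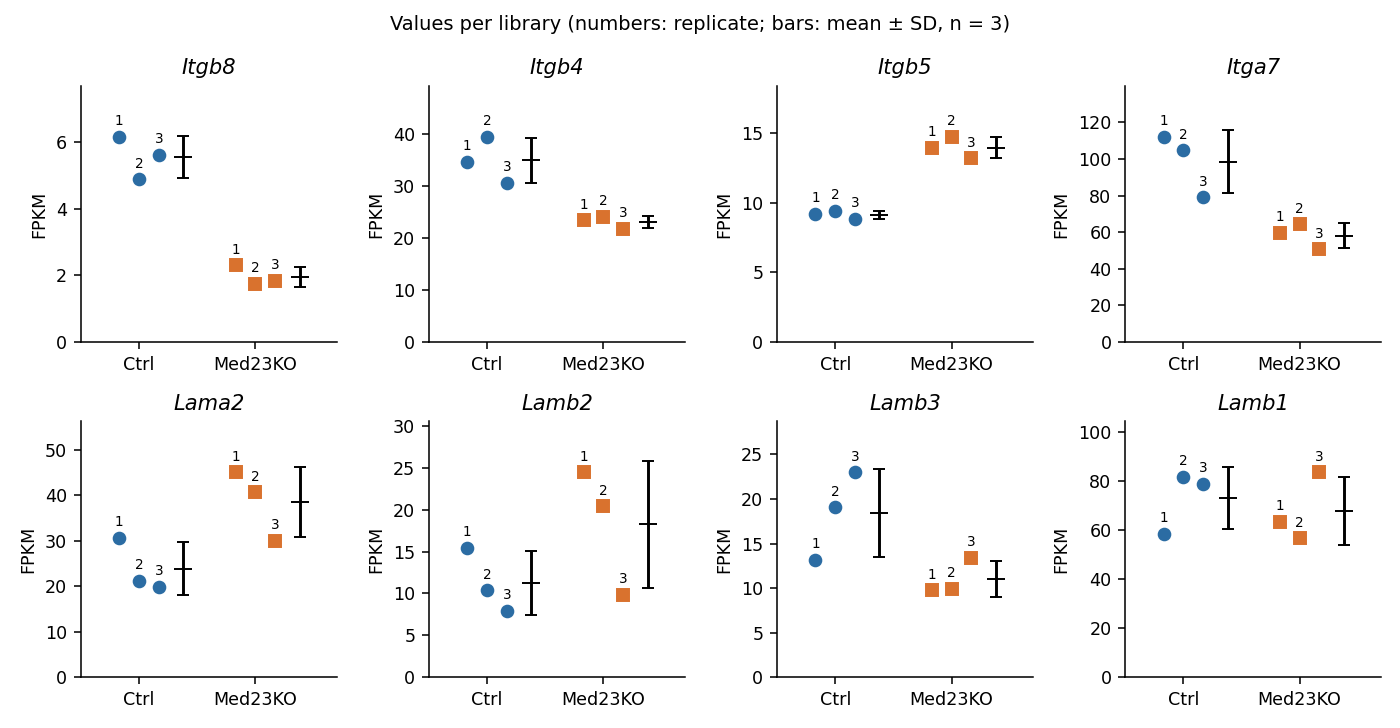
FPKM per library for 8 members (circles, Ctrl; squares, Med23KO; the small number is the replicate), with the mean ± SD of 3 libraries beside them and axes from 0. Itgb8, Itgb4 and Itga7 lie lower and Itgb5 higher in every Med23KO library, whereas Lama2, Lamb2, Lamb3 and Lamb1 overlap between groups.

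Among the laminin-binding receptors, the β4 gene fell while its partner α6 did not pass the test. Itgb4 encodes the long-tailed subunit that links laminin to keratin filaments in epithelial hemidesmosomes. It had 34.7, 39.4 and 30.6 FPKM in Ctrl and 23.4, 24.1 and 21.8 FPKM in Med23KO, without overlap. The mean fell to 23.1 ± 1.21 FPKM, 66.2% of the control mean (log2 fold change -0.57, SE 0.115, adjusted p = 0.0484). This call lay at the threshold: it was kept without Med23KO replicate 3 (adjusted p = 0.0417) and lost without any 1 of the other 5 libraries (adjusted p 0.0711 to 0.191). Itga6 had 56.2, 61.1 and 58.0 FPKM in Ctrl and 68.6, 61.1 and 52.4 FPKM in Med23KO, and its groups overlapped (log2 fold change 0.05, 95% interval -0.22 to 0.32). The ratio of Itgb4 to Itga6 was 0.529 to 0.645 in Ctrl and 0.341 to 0.415 in Med23KO.

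Itgb4 is best known from epithelia, so the epithelial markers were read beside it. Of 11 markers, 9 were below 1 FPKM in every library and the keratin genes Krt5, Krt14 and Krt15 were listed at 0. The list summed to 12 to 29.8 FPKM in Ctrl and 1.05 to 2.60 FPKM in Med23KO, and the claudin gene Cldn4 made up most of it (18.5 ± 8.97 FPKM in Ctrl and 1.21 ± 0.835 FPKM in Med23KO). The part of such cells in the fall of Itgb4 was not tested.

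Itga7, the α subunit of the main laminin receptor of muscle, had 112, 105 and 79.1 FPKM in Ctrl and 59.7, 64.2 and 50.5 FPKM in Med23KO. Every knockout library lay below every control library, at 59.0% of the control mean. The log2 fold change was -0.74 (SE 0.154, 95% interval -1.10 to -0.38), and its adjusted p of 0.0515 missed the threshold of 0.05. It passed in 5 of the 13 fits that used all 6 libraries: quantile normalization, median scaling, rescaling without the abundant noncoding RNA Rmrp, library weights and a block for the replicate number. It also passed by the authors' deposited q-value. Over all genes the weights called 1686 higher and 1659 lower and the block 1180 and 1577, beside 184 and 175 in the main fit. With a library left out, Itga7 passed only without Med23KO replicate 3 (adjusted p = 0.0411). In the other such fits its adjusted p was 0.0501 to 0.213. Within the sum of the laminin-binding α genes Itga3, Itga6 and Itga7, the share of Itga7 was 58.2% ± 4.61 in Ctrl and 45.2% ± 2.59 in Med23KO. The sum itself was 148 to 179 FPKM in Ctrl and 112 to 140 FPKM in Med23KO. Itga3, which pairs with β1, had 11.4 ± 0.803 FPKM in Ctrl and 87.5% of that in Med23KO (log2 fold change -0.18, adjusted p = 0.494). The ratio of Itga7 to Itga6 was 1.36 to 1.99 in Ctrl and 0.869 to 1.05 in Med23KO, so both genes had nearly equal levels in the knockout libraries.

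Markers of myogenic differentiation moved in the same comparison. Of 18 tested, 7 were called higher and 0 lower in limma, or 38.9%, beside 2.91% of all tested genes. The log2 fold change was above 0 for 16 and below 0 for 2, Tnni1 (-0.68) and Tnnt2 (-0.47). Over all 12336 tested genes, 5566 were above 0 and 6770 below. The 20 listed genes summed to 254 to 295 FPKM in Ctrl and 466 to 510 FPKM in Med23KO. Myog, the myogenin gene, had 43.8, 32.2 and 14.6 FPKM in Ctrl and 84.5, 89.4 and 76.0 FPKM in Med23KO (adjusted p = 0.0609). Whether the state of differentiation had a part in the levels of Itga7 was not tested.

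The remaining integrin genes did not pass. Itgb1 had 174, 213 and 245 FPKM in Ctrl and 200, 212 and 259 FPKM in Med23KO, with a 95% interval of -0.27 to 0.44 for its log2 fold change. Itga5 had 19.8, 23.3 and 21.4 FPKM in Ctrl and 26.2, 21.3 and 22.5 FPKM in Med23KO (interval -0.16 to 0.38). Itga1 had 1.23 ± 0.388 and 1.42 ± 0.286 FPKM (interval -0.30 to 0.57). The direction of Itgb1, Itga5, Itga1, Itga6 and Itgb3 is not settled, since each estimate changed sign under at least 1 alternative. Summed over all α genes the level was 228 to 255 FPKM in Ctrl and 203 to 218 FPKM in Med23KO, and over all β genes 229 to 297 and 246 to 304 FPKM. The α and β sums were thus of like size, with a ratio of 0.923 ± 0.15 in Ctrl and 0.797 ± 0.115 in Med23KO. Of the 6 tested α genes, 1 (Itga7) had an unadjusted p under 0.05 in limma, beside 2434 of all 12336 tested genes. The authors' deposited Cuffdiff q-values passed for Itga7 and Itga4.

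**Figure D3:**
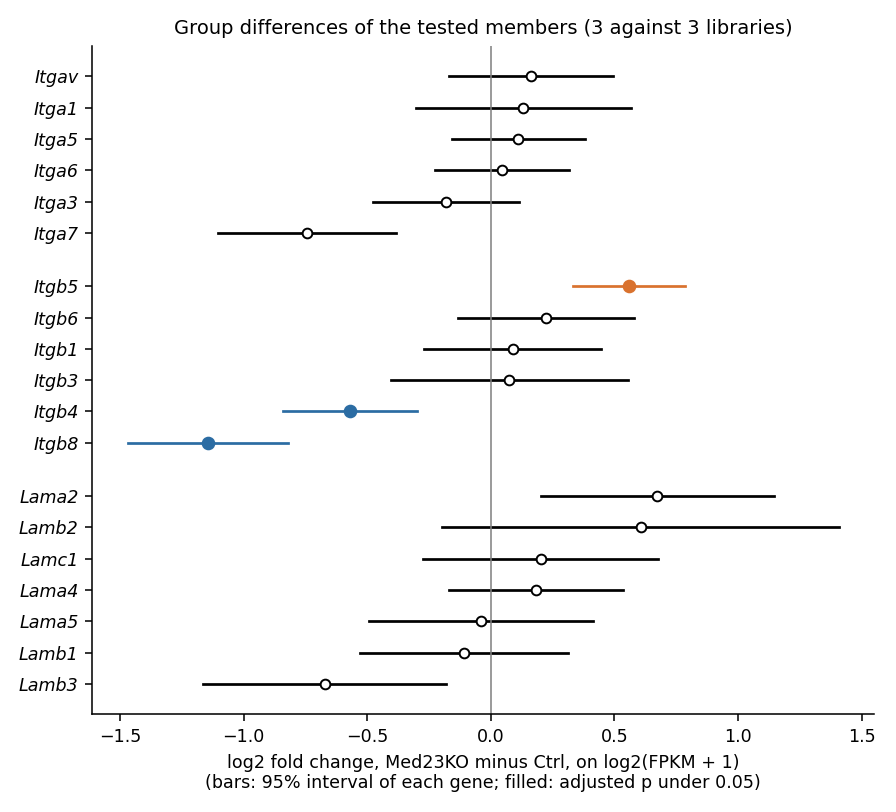
Log2 fold change of each tested member with its 95% interval from limma (not adjusted for the number of genes), for integrin α, integrin β and laminin genes from top to bottom. Filled points passed the adjusted threshold (Itgb5 higher, Itgb4 and Itgb8 lower), and the intervals of Itga7, Lama2 and Lamb3 exclude 0 without passing it.

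Of the laminin genes, 0 of the 7 tested passed in limma, beside 2.91% of all tested genes. None of the 7 had groups without overlap, beside 24.7% of all tested genes. Unadjusted p-values were under 0.05 for 2 of the 7, Lama2 and Lamb3, beside 2434 of all 12336 tested genes. The median log2 fold change of the 7 was 0.18. In the authors' deposited table, q-values were under 0.05 for 3 of 8 laminin genes, Lama2 and Lamb2 higher and Lamb3 lower. This was 37.5%, beside 15.7% of all genes tested there.

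Lama2, the α chain typical of the muscle basement membrane, had 30.6, 21.2 and 19.9 FPKM in Ctrl and 45.1, 40.6 and 30.1 FPKM in Med23KO. Med23KO replicate 3 lay just below Ctrl replicate 1, and the other 2 knockout libraries lay above all controls. The mean was 161% of the control mean (log2 fold change 0.67, 95% interval 0.20 to 1.14, adjusted p = 0.125). Without Med23KO replicate 3 the log2 fold change was 0.84 and passed (adjusted p = 0.0303). Over all genes that fit called 749 higher and 395 lower, beside 184 and 175 in the main fit. With any other library left out Lama2 did not pass (adjusted p 0.0878 to 0.373). A gene model on the same strand inside Lama2, Gm36962, which shares no exonic base with it, rose from 5.19 ± 0.156 to 9.17 ± 1.46 FPKM (adjusted p = 0.0385). Lama5, the α chain of many epithelial and vascular basement membranes, had 18.0, 17 and 11.9 FPKM in Ctrl and 17.7, 15.9 and 11.8 FPKM in Med23KO, and the groups overlapped. The share of Lama2 in the summed α chains was 53.7% to 61.6% in Ctrl and 69.6% to 69.9% in Med23KO, where the 3 libraries gave almost 1 value although their Lama2 levels differed. Lama4 had 1.01 ± 0.194 and 1.28 ± 0.175 FPKM (interval of the log2 fold change -0.17 to 0.53).

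Lamb2, the β2 chain that is enriched at the neuromuscular junction, had 15.5, 10.4 and 7.95 FPKM in Ctrl and 24.4, 20.4 and 9.86 FPKM in Med23KO. The spread within the knockout group was large, with Med23KO replicate 3 inside the control range (log2 fold change 0.61, 95% interval -0.20 to 1.41, adjusted p = 0.389). Without that library the log2 fold change was 0.97 and passed (adjusted p = 0.0445). With any other library left out Lamb2 did not pass (adjusted p 0.284 to 0.708). Lamb1 had 58.4, 81.6 and 78.7 FPKM in Ctrl and 63.3, 56.5 and 83.4 FPKM in Med23KO, with overlapping groups (interval -0.53 to 0.31). Lamc1, the γ chain that joins most laminins, had 53.6, 40.1 and 35.1 FPKM in Ctrl and 55.1, 56.1 and 37.4 FPKM in Med23KO (interval -0.27 to 0.68).

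Lama2 is also abundant in fibro-adipogenic progenitors and fibroblasts, which a sort of muscle stem cells can contain. The 14 markers of these cells summed to 233 to 309 FPKM in Ctrl and 304 to 468 FPKM in Med23KO. Of 11 tested markers, 10 had a positive log2 fold change, beside 5566 of all 12336 tested genes. In limma 0 passed, and 4 had an unadjusted p under 0.05, beside 2434 of all 12336. Of the 14 markers, 3 were below 1 FPKM in every library. The collagen gene Col3a1 made up most of the sum, at 161 ± 21.9 FPKM in Ctrl and 242 ± 52.6 FPKM in Med23KO (adjusted p = 0.14 in limma). The 11 pericyte and smooth muscle markers summed to 363 to 502 FPKM in Ctrl and 505 to 737 FPKM in Med23KO, and most of this sum was Acta2 and Des, of which Des is also a muscle stem cell marker here. Of the 6 tested, 3 had a positive and 3 a negative log2 fold change, Acta2 alone passed, and Cspg4, Notch3 and Pdgfrb had -0.58, -0.56 and -0.04. The part of these cells in the Lama2 and Lamb2 values was not tested.

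Lamb3 encodes the β3 chain, which forms an epithelial laminin together with the α3 chain. It had 13.2, 19.1 and 23.0 FPKM in Ctrl and 9.76, 9.91 and 13.4 FPKM in Med23KO. Only Med23KO replicate 3 reached the lowest control library, and the mean was 59.8% of the control mean (log2 fold change -0.67, 95% interval -1.16 to -0.18, adjusted p = 0.137). The α3 gene Lama3 was far lower, at 0.159 ± 0.111 FPKM in Ctrl and 0.226 ± 0.12 FPKM in Med23KO, and Lamb3 exceeded it in every library. On the opposite strand the annotated Lamb3 gene (GENCODE vM21 on mm10, chromosome 1, positions 193207699 to 193343878, plus strand) overlaps G0s2 and Hsd11b1, which share no exonic base with it. G0s2, an inhibitor of lipolysis, fell from 124 ± 16.8 to 39.5 ± 10.4 FPKM (adjusted p = 0.0123), and Hsd11b1 had 29.0 ± 2.93 and 33.7 ± 7.29 FPKM. Whether reads were counted by strand is not given in the sources used here.

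The laminin chains summed to 40.7 ± 8.48 FPKM of α, 103 ± 13.4 FPKM of β and 43.6 ± 9.63 FPKM of γ in Ctrl. In Med23KO the sums were 55.3 ± 10.9 FPKM of α, 97.0 ± 9.90 FPKM of β and 50.5 ± 10.4 FPKM of γ. Transcripts of α and γ chains were thus close to equal, at a ratio of 0.916 to 0.969 in Ctrl and 1.02 to 1.15 in Med23KO, while β transcripts exceeded γ transcripts in every library by 1.52 to 3.08 times. Lamc1 gave at least 97.1% of the γ sum in each library.

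**Figure D4:**
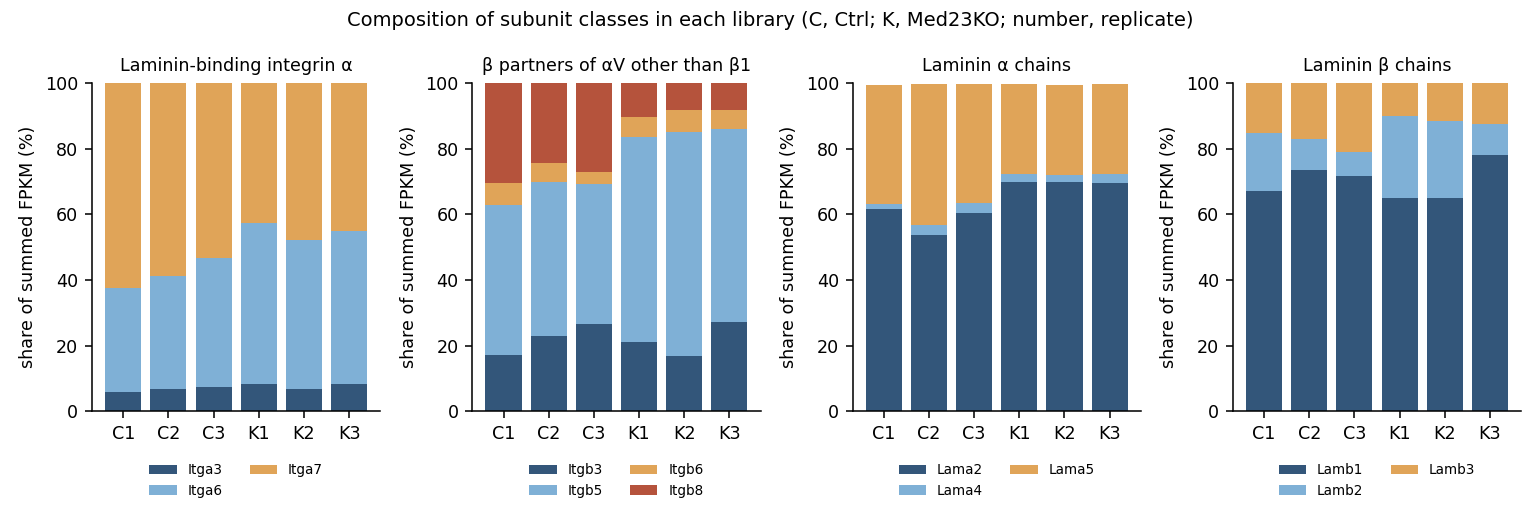
Share (%) of summed FPKM in each library (C, Ctrl; K, Med23KO) for laminin-binding integrin α genes, for the β partners of αV other than β1, and for laminin α and β chains, each against the sum of its class (for laminin α, all 5 chains). Itgb8 shrinks from 24.4% to 30.6% in Ctrl to 8.08% to 10.3% in Med23KO, and Lama2 takes 69.6% to 69.9% of the α chains in each Med23KO library.

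The 18 members under the level filter had means below 1 FPKM over the 6 libraries. Of these, 15 had a higher mean in Med23KO and 2 a lower one, at levels where an FPKM value rests on few reads. Itga4, whose α4β1 dimer binds VCAM-1 and fibronectin, was listed at 0.550, 0.350 and 0.276 FPKM in Ctrl and 0.850, 0.954 and 0.627 FPKM in Med23KO, without overlap. The authors' deposited table gave it a q-value of 0.000695, while in limma fits that kept genes of this level its adjusted p was 0.178 to 0.181. Itga9 had 0.327 ± 0.0982 FPKM in Ctrl and 0.587 ± 0.175 FPKM in Med23KO, also without overlap. Itga8, Itga2, Itga10, Itga2b, Itga11, Lama3, Lamc3 and Lama1 overlapped, the last at 0.0364 FPKM or less. The collagen-binding α subunits Itga1, Itga2, Itga10 and Itga11 did not exceed 1.67 FPKM in these cells, which were grown on collagen.

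Across all members the authors' deposited q-values were under 0.05 for 8 of the 22 genes that Cuffdiff tested (36.4%), 4 higher and 4 lower, against 15.7% of all 13123 genes tested there. These were Itga4, Itga7, Itgb4, Itgb5, Itgb8, Lama2, Lamb2 and Lamb3. The limma calls are a subset of them. Cuffdiff was run on the same libraries, so this is no separate check.

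Genes that work with integrins and laminins were read from 5 lists of 120 genes in all, of which 107 were tested. Of these, 4 rose and 4 fell, or 7.48%, beside 2.91% of all tested genes (1.49% higher and 1.42% lower), and their median log2 fold change was 0.11. Without Med23KO replicate 2, Ctrl replicate 1, 2 or 3, or Med23KO replicate 1, no gene of these lists rose past the threshold, and without Med23KO replicate 3 there were 19 that did.

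Matrix ligands other than laminins were tested for 20 of 24 genes, and the tenascin C gene Tnc alone passed, falling from 184 ± 32.2 to 55.9 ± 16.2 FPKM. Tenascin C binds several integrins, α9β1 and αVβ3 among them. Spp1, the gene of the secreted αV and α9 ligand osteopontin, had 3742 ± 1028 FPKM in Ctrl and 1720 ± 519 FPKM in Med23KO (adjusted p = 0.0657). Thbs2, a matricellular thrombospondin gene, had 9.34 ± 0.546 and 13.3 ± 1.05 FPKM (adjusted p = 0.0654). The latent growth factor that αVβ8 activates, from Tgfb1, had 64.4 ± 11.9 and 46.6 ± 2.79 FPKM (adjusted p = 0.144).

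Of the basement membrane partners of laminins, 15 of 19 were tested and Col18a1 alone passed, falling from 81.9 ± 14.8 to 32.7 ± 2.46 FPKM. The nidogen gene Nid2, whose product bridges laminin and collagen IV networks, had 6.66 ± 1.6 and 17 ± 5.34 FPKM (adjusted p = 0.0511). Ntn4, a netrin that binds laminin γ chains, had 18.5 ± 3.42 and 6.78 ± 3.32 FPKM (adjusted p = 0.0543). The median log2 fold change of this list was 0.38, beside -0.03 over all tested genes. Of the 15, 11 were above 0, beside 5566 of all 12336 tested genes.

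Other laminin receptors include the dystroglycan and sarcoglycan complex of muscle and the syndecans. All 21 were tested. The β-sarcoglycan gene Sgcb rose from 32.3 ± 1.26 to 50.0 ± 1.10 FPKM (log2 fold change 0.62, adjusted p = 0.0197), and the syndecan gene Sdc1 fell from 40.5 ± 3.96 to 19.0 ± 1.33 FPKM (log2 fold change -1.05, adjusted p = 0.0104). Sspn and Sgce, which belong to the same muscle complex as Sgcb, had positive log2 fold changes of 0.57 and 0.50 without overlap between groups, and their adjusted p-values were 0.0827 and 0.092.

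At the cytoplasmic tails of integrins, 41 of 46 adaptor and kinase genes were tested. The paxillin gene Pxn, a scaffold of focal adhesions, fell from 45.7 ± 5.17 to 28.1 ± 1.75 FPKM (adjusted p = 0.0294). Fyn, a Src-family kinase gene, rose from 14.3 ± 0.808 to 27.5 ± 5.59 FPKM (adjusted p = 0.0316). The talin 2 gene Tln2 had 41.5 ± 2.90 and 61.4 ± 9.23 FPKM and the focal adhesion kinase relative Ptk2b 4.50 ± 0.990 and 2.49 ± 0.218 FPKM (adjusted p = 0.0724 and 0.081). Itgb1bp1, a negative regulator of β1 activation, had 6.64 to 7.25 FPKM in Ctrl and 6.57 to 7.20 FPKM in Med23KO. The muscle gene Itgb1bp2, the melusin gene, was listed at 0.685, 0.370 and 0.188 FPKM in Ctrl and 1.65, 0.883 and 1.02 FPKM in Med23KO, under the level filter.

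Tetraspanins and other lateral partners were all tested, and 2 of 12 rose. Tspan9 rose from 24.1 ± 2.92 to 54.8 ± 10.4 FPKM (log2 fold change 1.14, adjusted p = 0.0197). Cd47, the integrin-associated protein that binds αVβ3 and thrombospondin, rose from 23.5 ± 1.76 to 42.8 ± 8.78 FPKM (log2 fold change 0.82, adjusted p = 0.043). The median of this list was -0.04, with 6 genes above and 6 below 0.

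**Figure D5:**
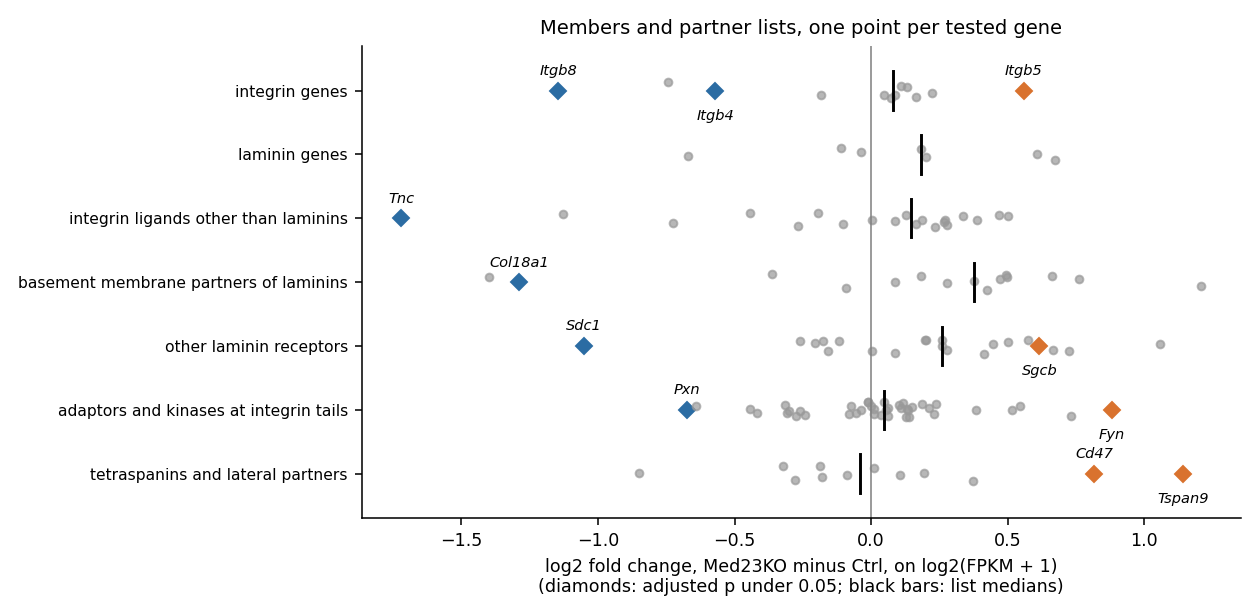
Log2 fold change (Med23KO minus Ctrl) of each tested gene in the integrin and laminin sets and in 5 partner lists, with black bars at the medians. The called genes (diamonds) are Itgb8, Itgb4, Itgb5, Tnc, Col18a1, Sdc1, Sgcb, Pxn, Fyn, Cd47 and Tspan9, while most points lie between -0.5 and 0.5.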

How the data were processed

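RNA was measured by strand-specific poly(A) RNA-seq in 6 libraries. Per the submitters' processing notes, FastQC, cutadapt, STAR, Cuffdiff and mm10 were used. No source used here gives their versions, the annotation or the strand setting. The authors deposited FPKM per library, which keep no read depth, and Cuffdiff q-values.

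All 37 members were found by symbol. Of 12368 rows listed by Ensembl identifier, 12316 matched GENCODE vM21, and none was a further member. Values were log2(FPKM + 1). The 12336 genes whose mean reached 1 FPKM were fitted with limma 3.58.1 in R 4.3.3 (mean-variance trend, genotype as the factor, two-sided, Benjamini-Hochberg over all genes, threshold 0.05). Scripts were tested on simulated data. The members, gene lists and tests were chosen with earlier results of these data known. Named genes are all members, the called genes and up to 4 genes with the smallest adjusted p of each partner list, and Med23, Pax7, Myod1, Myog, Itgb1bp1 and Itgb1bp2. Of the genes under this rule, 2 are not reported here. G0s2, Hsd11b1, Gm36962, Tgfb1 and the single markers of other cell types were named after their values were seen. Alternatives covered the pseudocount, filter, scaling, variance model, library weights, replicate block and each library left out.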

Additional observations from a re-analysis of the deposited data

How the results depend on the processing

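Of the member calls, Itgb8 was kept in all 12 fits of all 6 libraries that tested it, Itgb5 in 12 of 13 and Itgb4 in 10 of 13. The count of integrin genes called higher (1) was 0 without a level filter and 2 by the authors' q-values, and 0 to 1 with a library left out. The count called lower (2) was 1 with a minimum mean of 0.1 or 5 FPKM, with no filter and without a variance trend, 3 with quantile normalization, median scaling, Rmrp left out, library weights, the replicate block and the authors' q-values, and 0 to 3 with a library left out. Laminin genes called higher (0) were 1 with Rmrp left out, 3 with library weights, 2 with the replicate block, 2 by the authors' q-values and 0 to 2 with a library left out, and those called lower (0) were 1 with weights, the block or the q-values.
Partner genes called higher (4) were 2 without a filter, 8, 10 and 12 with quantile normalization, median scaling and Rmrp left out, 25 with weights, 24 with the block, 29 by q-value and 0 to 19 with a library left out. Those called lower (4) were 20, 16 and 13 with weights, the block and q-values, and 0 to 7 with a library left out.

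Over all genes, 184 were called higher and 175 lower, and this split was 298 and 201 with quantile normalization, 363 and 205 with median scaling and 489 and 157 with Rmrp left out. It was 73 and 84 without a filter, 1686 and 1659 with weights (limma's gene-by-gene method), 1180 and 1577 with the block, 1130 and 924 by q-value, and 3 to 749 and 10 to 395 with a library left out. The highest count came without Med23KO replicate 3 and the lowest without Med23KO replicate 2.

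Same-numbered libraries had correlations of 0.437, -0.0158 and 0.563 between their deviations from the group means. For replicates 1 and 3 these were the highest values. Ctrl replicate 1 had -0.575 with Med23KO replicate 3, and Ctrl replicate 3 had -0.424 with Med23KO replicate 1. Ctrl replicate 2 had -0.0353 to 0.0396 with the Med23KO libraries, which matches it to none of them. Whether the numbers pair the samples is thus not settled, and the main fit does not pair them. With the replicate block, Itga7, Lama2, Lamb2 and Lamb3 passed (adjusted p = 0.00173, 0.0046, 0.0181 and 0.00792 in limma).

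Signs turned for Itga5 (-0.014) and Itgb3 (-0.164) with weights and for Lama5 (0.054) with Rmrp left out. With a library left out, log2 fold changes ran from -0.021 to 0.228 for Itga1, -0.045 to 0.146 for Itga6, -0.043 to 0.203 for Itgb1, -0.085 to 0.227 for Itgb3, -0.208 to 0.119 for Lama5 and -0.266 to 0.010 for Lamb1. The cause of these changes was not tested. Read depth is unknown, so no counting error can be given for low members.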

Other observations

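The position of a library within its group was read for each tested member after the values were seen, and was not tested. In both groups replicate 3 had the lowest value of 8 of 19 members (Itga7, Itgb4, Itgb5, Itgb6, Lama2, Lama5, Lamb2 and Lamc1), beside 39.7% of all tested genes, and the highest value of 4 of 19 (Itgav, Itgb1, Itgb3 and Lamb3), beside 18.5%. Replicate 1 had the highest value in both groups of 4 of 19 (Itgb8, Lama2, Lama5 and Lamb2), beside 27.2%, and the lowest of 4 of 19 (Itga1, Itgav, Itgb1 and Lamb3), beside 20.2%. Replicate 2 had the highest value in both groups of Itgb4 and Itgb5, beside 10.3% of all tested genes, and the lowest of Itgb8, beside 4.48%. The shares of members are near those of all tested genes, so these positions are not a result about the integrin and laminin genes.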
